A study of Mus musculus with 11 samples.

Results

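The state of AML12 cells between an epithelial and a mesenchymal pattern was described through 10 genes, named by their symbols in the deposited table: *Cdh1*, *Ocln* and *Tjp1* of epithelial junctions, *Cdh2*, *Vim* and *Fn1* of the mesenchymal pattern, and the transcription factors *Snai1*, *Snai2*, *Zeb1* and *Zeb2*. Each of the 10 had 1 entry among the 24849 genes of the table, and all 10 passed the filter on low counts in every comparison. The genes were taken by name as EMT genes, with earlier results of these data known.

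Epithelial cells are held together by adherens junctions, built on E-cadherin, and are sealed by tight junctions, in which occludin and the claudins span the membrane and ZO-1 binds them from within. In the epithelial-mesenchymal transition (EMT), transcription factors of the SNAIL and ZEB families bind short E-box sequences and repress E-cadherin and other epithelial genes, while N-cadherin, vimentin and fibronectin are produced. In the liver, EMT genes are studied in injury and fibrosis, and cultured hepatocytes are known to take up part of the mesenchymal pattern on plastic.

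AML12 is a hepatocyte line from a mouse transgenic for human TGF-alpha, so cells of every group carry that transgene. Polyadenylated RNA was sequenced from 4 libraries of AML12 KO cells, 3 of WT cells and 4 of KI cells, 11 in all. In the KO cells, whose genotype the labels give as TXNDC5 Knockdown, exon 5 of *Txndc5* was cut with CRISPR/Cas9 and recombined with a puromycin resistance gene, and resistant cells were selected with repeated puromycin. In the KI cells, labelled TXNDC5 Knockin, the series' design text gives overexpression from the ROSA26 locus, a safe harbour for inserted DNA, and this line is not described further in the sources used here. The WT cells are the parental line and were not described as selected, so the edit, the selection and the drift of 1 line cannot be told apart. The labels number the libraries 5 to 8 in the KO and KI cells and 5-6, 7 and 8 in the WT cells. They do not say whether these came from separate cultures, and the p-values then measure only the spread between libraries, which may be technical.

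Total counts ranged from 29840366 to 38422243 per library. Levels were given as CPM, counts scaled to a common library size, after TMM scaling, which corrects for the composition of a library and gave factors of 0.744 to 0.947 in the WT libraries and of 1.02 to 1.13 in the others. The newly assembled entry with the most counts took 11.3% to 17.1% of the counts in the WT libraries, and 4.32% to 9.12% in the others. *Txndc5* had 10.2 ± 1.90 CPM in the KO (SD, n = 4), 142.9 ± 4.37 in the WT (n = 3) and 168.9 ± 10.2 in the KI libraries (n = 4). It was 14.1-fold lower in the KO than in the WT cells by edgeR's quasi-likelihood test (Benjamini-Hochberg adjusted p = 4.09e-08). All 4 KI libraries were above the WT libraries, but this difference did not pass the test (log2 fold change 0.24, SE 0.12, adjusted p = 0.136), so that the level of *Txndc5* does not bear out the KI label beyond the spread between libraries. WT 8 stood apart from the other WT libraries in the counts of all genes, and it gave the highest WT level of 8 of the 10 EMT genes. KO 5 and KI 7 also differed more from the other libraries of their groups than those did from each other. KO 5 gave the lowest KO level of 5 of the 10 genes, and KI 7 the highest KI level of 4.

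Markers of hepatocytes summed to 6330 to 7456 CPM in the KO, 3856 to 6015 in the WT and 2952 to 3745 in the KI libraries, but the members of this list differed in direction. *Alb* averaged 4114 CPM in the KO, 513 in the WT and 246 in the KI cells, whereas *Trf* averaged 1346, 2974 and 1409 and *Ttr* 438, 826 and 596. *Apoa1*, *Ahsg* and *Fgb* were at most 7.36 CPM on average in the WT and KI cells. All 8 of these markers were above 3 counts in the KO cells, and 7 of 8 in the WT and KI cells, where *Ahsg* was at or under 3. Markers of cholangiocytes summed to 1339 to 1503 CPM in the KO, 2974 to 4378 in the WT and 2604 to 3083 in the KI libraries. *Epcam* was at or under 3 counts throughout and *Cftr* in the KO. These markers also differed in direction. *Spp1* averaged 246 CPM in the KO, 2520 in the WT and 1958 in the KI cells. *Krt7* averaged 17.0, 177 and 118 and *Sox9* 34.1, 46.5 and 36.1, whereas *Krt19* was highest in the KO cells, at 1097, 770 and 747. The 8 markers of stellate cells and fibroblasts summed to at most 1.65 CPM in any library, and *Lrat*, *Pdgfrb* and *Col1a2* were at or under 3 counts in every group. The 6 endothelial markers reached at most 0.42 CPM. The 6 leukocyte markers summed to 1.95 to 2.69 CPM in the KO, 6.73 to 9.56 in the WT and 3.24 to 6.66 in the KI libraries, with *Adgre1* and *Clec4f* at or under 3 counts throughout. The part of the hepatocyte, cholangiocyte and leukocyte markers, and of the WT scaling factors, in the values that follow was not tested.

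Comparing KO with WT cells, the question was whether loss of TXNDC5 went with a change in EMT genes. The 10 genes did not move along 1 axis. *Zeb2* was 8.87-fold higher in the KO cells, *Snai2*, *Vim*, *Tjp1* and *Cdh2* were 1.39- to 1.58-fold higher, and *Ocln* and *Fn1* were 3.12- and 3.22-fold lower. *Cdh1*, *Snai1* and *Zeb1* did not pass the test. Thus 7 of the 10 were called, 5 higher and 2 lower, where 55.1% of the 13359 genes tested were called, 26.7% as higher and 28.4% as lower. The libraries of the 2 groups did not overlap for 7 of the 10 genes, as for 55.3% of all genes. The median log2 fold change was 0.42 over the 10 genes and -0.03 over all genes tested. In RNA from bulk cultures, a change in the share of cells that express a gene and a change in its RNA per cell cannot be told apart.

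**Figure D1:**
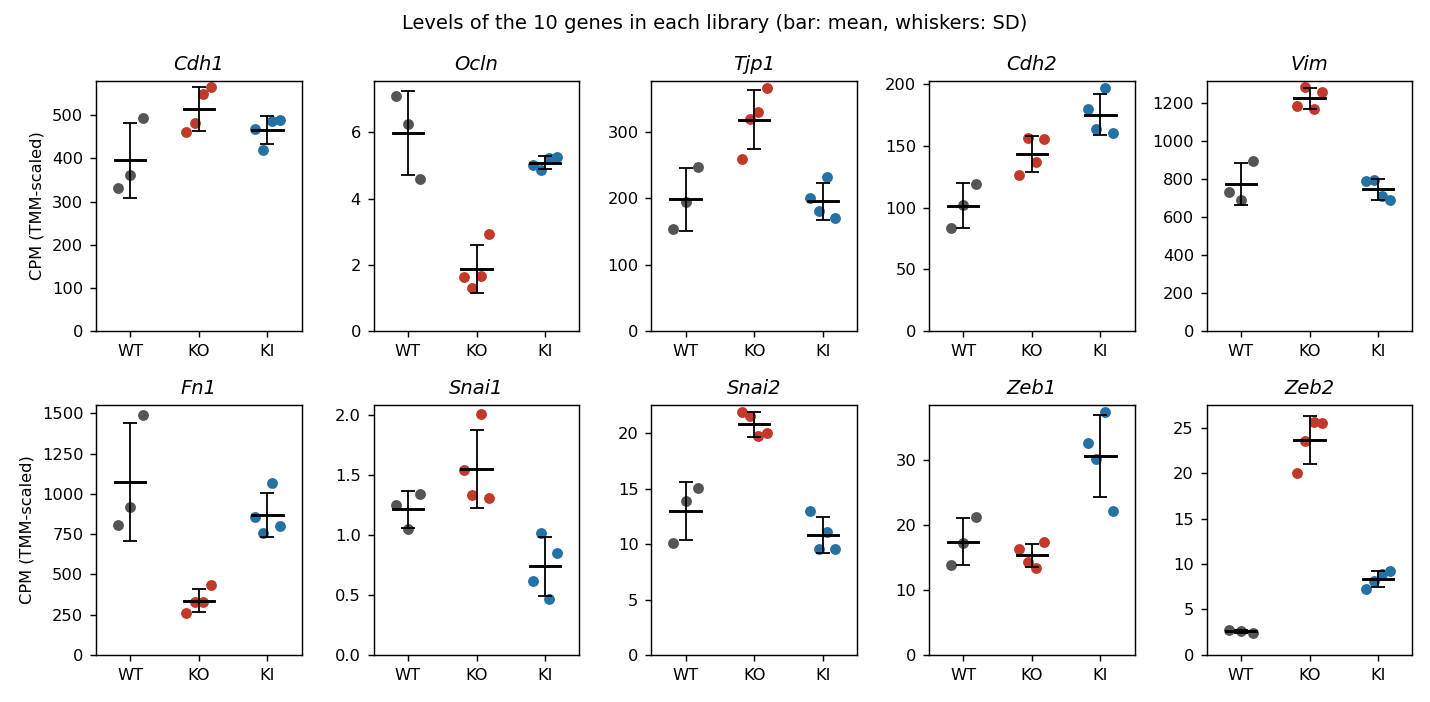
Level of each gene in CPM after TMM scaling (vertical axes, each from 0) in every library of the WT (n = 3), KO (n = 4) and KI cells (n = 4). Points are libraries, bars are means and whiskers are SDs. *Zeb2* and *Cdh2* separate all 3 groups, *Fn1* and *Ocln* are lowest in the KO libraries, *Zeb1* is highest in the KI libraries, and the groups of *Cdh1* overlap.

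*Cdh1* encodes E-cadherin, the adhesion molecule of adherens junctions. It had 461.8, 483.0, 548.3 and 566.2 CPM in KO 5, 6, 7 and 8, and 330.6, 362.0 and 493.9 CPM in WT 5-6, 7 and 8. Both lower WT libraries lay under all KO libraries, while WT 8 lay among them. The log2 fold change was 0.36 (SE 0.16, 95% CI 0.00 to 0.72) and did not pass the test (edgeR, adjusted p = 0.0800). Without WT 8 it was 0.58 and passed (adjusted p = 0.00147), and with the replicate number as a block it was 0.43 and also passed (adjusted p = 0.00471). No fit gave a lower level of *Cdh1* in the KO cells.

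*Ocln* encodes occludin, a membrane protein of tight junctions, and was scarce in this line. It had 58, 44, 56 and 128 counts in KO 5, 6, 7 and 8 (1.63, 1.30, 1.68 and 2.94 CPM) and 159, 155 and 130 counts in WT 5-6, 7 and 8 (7.09, 6.25 and 4.60 CPM). Every KO library was under every WT library, and KO 8 was the highest of its group. The level was 3.12-fold lower in the KO cells (log2 fold change -1.64, SE 0.30; edgeR, adjusted p = 0.000898). *Tjp1*, which encodes the tight junction scaffold ZO-1, moved the other way. Its level was 258.3, 319.4, 330.0 and 365.4 CPM in KO 5, 6, 7 and 8, and 153.1, 194.0 and 247.2 CPM in the WT libraries in the same order as above. The groups did not overlap, although KO 5 and WT 8 were close. The log2 fold change was 0.66 (SE 0.18; edgeR, adjusted p = 0.00878).

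The sequence around the E-box letters near the starts of *Ocln* is shown because the SNAIL and ZEB factors measured here are known to bind such letters. The letters CACCTG and CAGGTG, each being the other read on the opposite strand, were searched in windows of 250 bases before to 50 bases after the annotated starts of genes in RefSeq (GRCm38.p6). Windows were matched for 5 of the 10 genes, *Vim*, *Zeb2*, *Snai1*, *Tjp1* and *Ocln*, with 9 windows in all. The letters were in 3 of the 9 windows, those of *Snai1* and *Ocln*, and in 20.2% of the 32851 windows of all genes. By gene, they were in 2 of the 5. The windows of *Ocln* overlap, and the match of its first stretch lies in both. Some windows of *Zeb2* also overlap. The 9 windows are therefore not independent, and their share cannot be weighed against that of all genes. The first stretch of *Ocln* lies at chr13:100552694-100552723, minus strand, and holds the letters at position 8, with 1 annotated start counted as position 1. The second lies at chr13:100552549-100552578, minus strand, and holds them at position -68, counted from the other start. Capitals mark the letters searched, and a match describes the sequence only.
Ocln, first stretch: ccatcggagtttCAGGTGaatgggtcaccg
Ocln, second stretch: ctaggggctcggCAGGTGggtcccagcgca

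*Cdh2* encodes N-cadherin, which hepatocytes express beside E-cadherin. Its level was 126.2, 156.1, 136.6 and 155.2 CPM in KO 5, 6, 7 and 8, and 83.1, 102.3 and 119.4 CPM in WT 5-6, 7 and 8. All KO libraries were above all WT libraries, with KO 5 the nearest to WT 8. The log2 fold change was 0.48 (SE 0.15; edgeR, adjusted p = 0.0180), and it no longer passed without KO 6 (0.43, adjusted p = 0.0583) or without KO 8 (0.44, adjusted p = 0.0503). *Vim*, which encodes the intermediate filament vimentin, had 1181, 1282, 1169 and 1258 CPM in the KO libraries. It had 729.0, 688.4 and 895.4 CPM in the WT libraries. The KO libraries were close to each other and above the WT libraries, with a log2 fold change of 0.65 (SE 0.14; edgeR, adjusted p = 0.00285).

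*Fn1* encodes fibronectin, a protein of the extracellular matrix that hepatocytes also secrete into plasma. It fell in the KO cells, opposite to *Cdh2* and *Vim*. Its level was 258.3, 330.7, 328.9 and 432.8 CPM in KO 5, 6, 7 and 8, against 809.6, 921.8 and 1492 CPM in WT 5-6, 7 and 8. The highest KO library was under the lowest WT library, and WT 8 was far above the other WT libraries. The level was 3.22-fold lower in the KO cells (log2 fold change -1.69, SE 0.23; edgeR, adjusted p = 0.000118). Without WT 8 the log2 fold change was -1.35 (adjusted p = 2.35e-05).

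*Zeb2* encodes a zinc-finger repressor and had the strongest change of the 10 genes. It had 713, 796, 855 and 1110 counts in KO 5, 6, 7 and 8, against 61, 64 and 69 counts in WT 5-6, 7 and 8. In CPM this was 19.99, 23.6, 25.7 and 25.5 in the KO and 2.72, 2.58 and 2.44 in the WT libraries. The WT libraries were almost level, and every KO library was far above them. The log2 fold change was 3.15 (SE 0.17, 95% CI 2.78 to 3.52; edgeR, adjusted p = 2.43e-07), and it stayed between 3.11 and 3.22 when any 1 library was left out. *Zeb1*, its paralog, had 16.2, 14.3, 13.4 and 17.3 CPM in the KO and 13.9, 17.2 and 21.2 CPM in the WT libraries. These groups overlapped, with a log2 fold change of -0.21 (SE 0.17, 95% CI -0.59 to 0.17; edgeR, adjusted p = 0.327). *Zeb2os*, which the GENCODE annotation places on the strand opposite to *Zeb2*, was not in the table, and the protocol in the labels does not mark strand, so reads of such a partner cannot be told apart from those of *Zeb2*.

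The 250 bases before the first annotated start of *Zeb2* are shown as the promoter of the gene with the largest change, and those of *Snai1* as the SNAIL promoter that holds the E-box letters. The *Zeb2* stretch lies at chr2:45117443-45117692, minus strand, and holds no match. The *Snai1* stretch lies at chr2:167537945-167538194, plus strand, with the match, in capitals, at position -126 counted from the start.
Zeb2: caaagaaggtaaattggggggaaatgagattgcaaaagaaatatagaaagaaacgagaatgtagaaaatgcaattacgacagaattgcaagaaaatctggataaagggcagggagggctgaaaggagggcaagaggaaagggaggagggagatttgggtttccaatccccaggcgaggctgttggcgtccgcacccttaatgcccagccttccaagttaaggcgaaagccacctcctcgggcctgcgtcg
Snai1: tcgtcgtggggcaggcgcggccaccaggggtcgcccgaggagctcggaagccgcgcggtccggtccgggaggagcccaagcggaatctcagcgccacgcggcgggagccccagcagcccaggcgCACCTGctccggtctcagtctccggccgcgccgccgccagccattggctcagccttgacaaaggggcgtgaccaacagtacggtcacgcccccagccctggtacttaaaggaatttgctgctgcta

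*Snai2* encodes SLUG and *Snai1* encodes SNAIL, repressors of the same family. *Snai2* had 21.9, 21.6, 19.7 and 20.02 CPM in KO 5, 6, 7 and 8, and 10.1, 13.9 and 15.1 CPM in the WT libraries. The KO libraries were close to each other and above all WT libraries, with a log2 fold change of 0.65 (SE 0.16; edgeR, adjusted p = 0.00585). *Snai1* was at the lower end of what this depth resolves, with 55, 45, 67 and 57 counts in the KO and 28, 26 and 38 counts in the WT libraries. In CPM this was 1.54, 1.33, 2.01 and 1.31 against 1.25, 1.05 and 1.35, and the groups overlapped. The log2 fold change was 0.32, with a 95% CI of -0.44 to 1.07 (edgeR, adjusted p = 0.460).

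The libraries labelled KI were compared with the WT libraries, which are also those of the comparison above. Here *Zeb2*, *Zeb1* and *Cdh2* were higher in the KI cells, by 3.19-, 1.75- and 1.72-fold, and none of the 10 genes was called lower. Thus 3 of 10 were called, where 42.3% of the 13534 genes tested were called, 21.2% as higher and 21.0% as lower. The libraries did not overlap for 4 of the 10 genes, the 3 called ones and *Snai1*, as for 44.7% of all genes. The median log2 fold change was -0.03 over the 10 genes and -0.02 over all genes.

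In the KI cells *Zeb2* had 260, 295, 341 and 302 counts, or 7.27, 8.13, 8.91 and 9.18 CPM, in KI 5, 6, 7 and 8. All 4 libraries were above the WT libraries and below the KO libraries. The log2 fold change against WT was 1.67 (SE 0.20; edgeR, adjusted p = 4.49e-05). *Zeb1* had 32.7, 30.2, 37.3 and 22.2 CPM in KI 5, 6, 7 and 8. Its lowest library, KI 8, was just above WT 8, and the log2 fold change was 0.81 (SE 0.20; edgeR, adjusted p = 0.00639). *Cdh2* had 179.9, 163.9, 196.7 and 160.3 CPM, all above the WT and the KO libraries. Its log2 fold change was 0.78 (SE 0.16; edgeR, adjusted p = 0.00158).

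*Snai1*, with 22, 37, 18 and 28 counts (0.62, 1.02, 0.47 and 0.85 CPM) in KI 5, 6, 7 and 8, was under the WT libraries in every KI library. With so few counts the 95% CI of the log2 fold change, -1.64 to 0.29 around -0.67, included 0 (edgeR, adjusted p = 0.243). *Cdh1* had 468.2, 419.4, 487.0 and 489.4 CPM, and its log2 fold change of 0.24 did not pass the test (95% CI -0.12 to 0.59; adjusted p = 0.261), but without WT 8 it was 0.43 and passed (adjusted p = 0.0118). The other 5 genes overlapped between KI and WT. *Ocln* had 5.01, 4.85, 5.23 and 5.26 CPM, inside the range of the WT libraries, and *Tjp1* had 199.8, 180.0, 232.0 and 169.6 CPM, also inside it. *Vim* had 790.4, 795.1, 707.6 and 688.6 CPM, and its log2 fold change lay between -0.37 and 0.28 (95% CI). *Fn1* had 854.3, 760.2, 1067 and 799.4 CPM, with a 95% CI of -0.76 to 0.15, and *Snai2* had 13.0, 9.54, 11.1 and 9.61 CPM, with a 95% CI of -0.68 to 0.14. A change of the size seen for *Fn1* in the KO cells is outside the interval of *Fn1* in the KI cells. Smaller falls, down to -0.76, no change, and rises up to 0.15 are inside it.

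**Figure D2:**
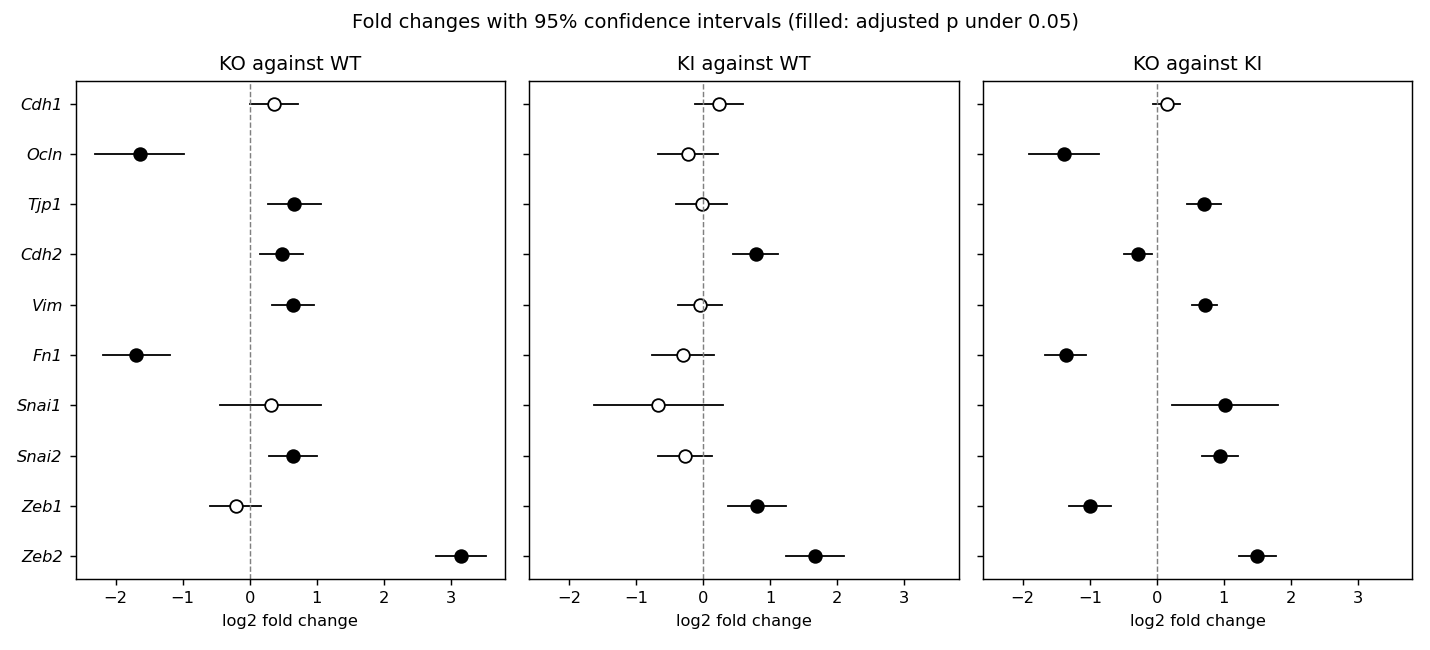
Log2 fold change (horizontal axis) of each gene for KO against WT, KI against WT and KO against KI, with its 95% confidence interval. Filled points passed the test across all genes. *Zeb2* lies right of 0 in all 3 panels, at 3.15, 1.67 and 1.50, *Ocln* and *Fn1* lie left of 0 with filled points where the KO cells are compared, and *Cdh1* has open points throughout.

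The KO and KI lines were also compared directly. Here 9 of the 10 genes were called, 5 higher and 4 lower in the KO cells, with *Cdh1* the exception, where 54.0% of the 13269 genes tested were called, 27.0% as higher and 27.0% as lower. The libraries did not overlap for 9 of the 10 genes, as for 48.6% of all genes. *Zeb2*, higher than WT in both lines, was 2.83-fold higher in the KO than in the KI cells (log2 fold change 1.50, SE 0.13; edgeR, adjusted p = 1.40e-07). *Cdh2*, also higher than WT in both lines, was lower in the KO than in the KI cells (-0.28, SE 0.10; adjusted p = 0.0234). That call was lost when any of KO 5, KO 7, KI 5 or KI 7 was left out (-0.27 to -0.22, adjusted p = 0.0576 to 0.0765). Relative to the KI cells, *Vim* was 1.64-fold, *Tjp1* 1.63-fold and *Snai2* 1.93-fold higher in the KO cells.

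*Fn1* and *Ocln* were 2.57- and 2.62-fold lower in the KO than in the KI cells, and *Zeb1* was 1.99-fold lower (log2 fold change -0.99, SE 0.15; edgeR, adjusted p = 4.40e-05). *Snai1* was 2.03-fold higher in the KO cells (log2 fold change 1.02, SE 0.37; edgeR, adjusted p = 0.0298). This call rested on few counts and was lost without KO 5, KO 7, KI 5 or KI 7 (adjusted p = 0.0511 to 0.0903). Across the 3 lines, the order was WT, KI, KO for *Zeb2* and WT, KO, KI for *Cdh2*, with all libraries of neighbouring groups apart. *Tjp1*, *Vim* and *Snai2* were set apart by the KO libraries at the upper end and *Ocln* and *Fn1* at the lower end, with KI and WT overlapping. For *Zeb1* the KI libraries were apart at the upper end, for *Snai1* they were apart at the lower end, and for *Cdh1* all neighbours overlapped.

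A ratio of 2 genes within a library does not depend on how libraries are scaled to each other. The ratio of *Zeb2* to *Zeb1* counts was 1.23, 1.64, 1.91 and 1.47 in KO 5, 6, 7 and 8, 0.196, 0.150 and 0.115 in WT 5-6, 7 and 8, and 0.222, 0.270, 0.239 and 0.413 in KI 5, 6, 7 and 8. *Zeb2* counts exceeded *Zeb1* counts in all KO libraries and in none of the others, and the 3 groups did not overlap. Counts were not divided by gene length here, so a ratio above 1 does not rank the 2 genes by level. The ratio of *Cdh1* to *Cdh2* was 3.66, 3.09, 4.01 and 3.65 in the KO, 3.98, 3.54 and 4.14 in the WT and 2.60, 2.56, 2.48 and 3.05 in the KI libraries. All KI libraries were under all others, while KO and WT overlapped. The ratio of *Snai2* to *Snai1* ranged from 9.82 to 16.2 in the KO, 8.07 to 13.3 in the WT and 9.35 to 23.6 in the KI libraries, with overlap of all groups.

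**Figure D3:**
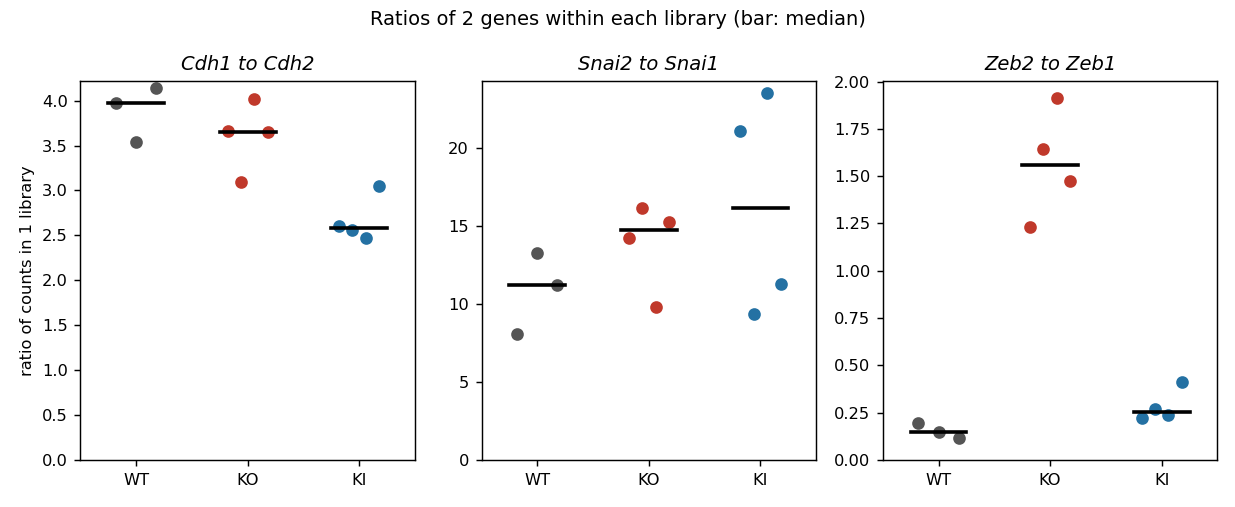
Ratio of the counts of 2 genes in the same library (vertical axes, each from 0) for *Cdh1* to *Cdh2*, *Snai2* to *Snai1* and *Zeb2* to *Zeb1*, in WT, KO and KI libraries. Points are libraries and bars are medians. The *Zeb2* to *Zeb1* ratio is 1.23 to 1.91 in the KO libraries and at most 0.413 elsewhere, and the *Cdh1* to *Cdh2* ratio is lowest in the KI libraries. Counts are not divided by gene length.

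To compare genes with each other, CPM was divided by the length of the merged exons in GENCODE vM21 (GRCm38), which may not be the annotation used for counting. On this scale *Vim* had the highest level in every group, 163 CPM per kb in the WT, 258 in the KO and 157 in the KI cells. In the WT cells *Fn1* at 92.0 and *Cdh1* at 86.5 CPM per kb came next, with overlapping libraries, followed by *Tjp1* at 25.4 and *Cdh2* at 12.6. In the KO cells *Fn1*, at 28.9 CPM per kb, was under *Cdh1* at 113 and *Tjp1* at 40.7, with overlap only of *Fn1* and *Tjp1*. Among the transcription factors *Snai2* had the highest level per length in each group, 6.44 CPM per kb in the WT, 10.3 in the KO and 5.34 in the KI cells. *Zeb2* was the lowest of the 10 in the WT cells (0.129 CPM per kb), whereas in the KO cells it was 1.19 CPM per kb and *Ocln* was the lowest at 0.447. *Zeb2* was still under *Zeb1* in the KO cells (1.00 to 1.29 against 1.31 to 1.69 CPM per kb), although its counts were higher. Divided by the longest transcript, their KO means were 2.60 and 2.64, with overlapping libraries. With the longest transcript as the length, the order was the same except that, in the KI cells, *Cdh2* passed *Tjp1* and *Zeb2* passed *Snai1*.

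**Figure D4:**
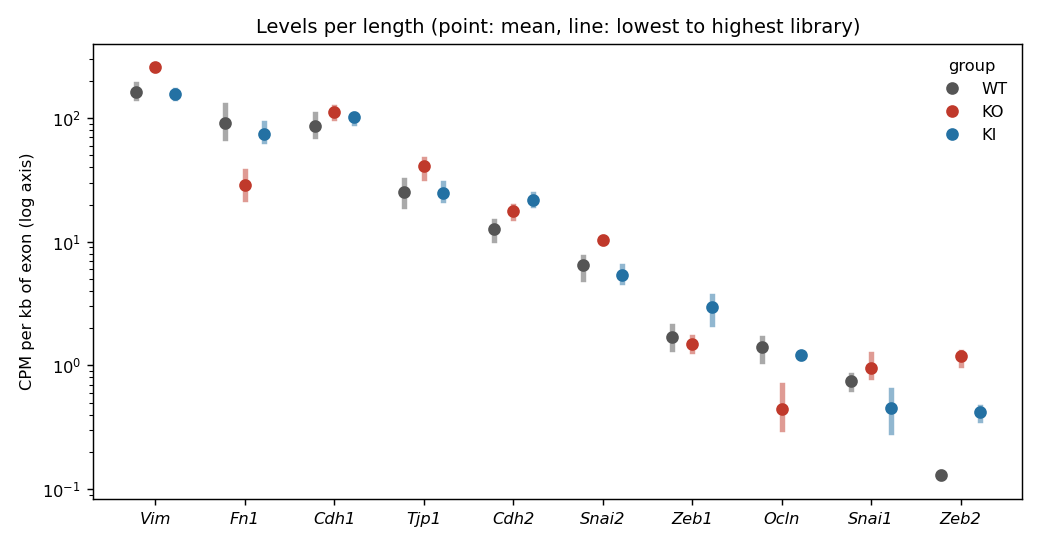
Level in CPM per kb of merged exon (vertical axis, log scale) of the 10 genes, ordered by their WT level, in WT, KO and KI cells. Points are means and lines run from the lowest to the highest library. In the WT cells *Vim* is highest at 163, and *Zeb2* rises from 0.129 in the WT to 1.19 CPM per kb in the KO cells.

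Other genes of cell junctions and EMT were counted in 6 lists, to be read against the 26.7% of all genes tested that were called higher and the 28.4% called lower in KO against WT. Of the adherens junction genes, 9 of 10 were tested in KO against WT, with 3 higher, 3 lower and a median log2 fold change of 0.01. *Nectin1*, an adhesion molecule that works beside cadherins, was at 31.3 ± 3.39 CPM in the KO and 14.3 ± 5.24 in the WT libraries (adjusted p = 0.00161), and *Ctnnd1*, which encodes p120-catenin, at 581.6 ± 57.1 and 396.6 ± 99.4 (adjusted p = 0.0217). *Nectin3* was lower, at 5.43 ± 0.74 against 7.85 ± 0.58 CPM (adjusted p = 0.0235). Of the tight junction genes, 11 of 16 were tested, with 3 higher, 4 lower and a median of 0.15. *Cldn6*, a claudin of embryonic epithelia, rose from 4.54 ± 0.87 to 18.6 ± 1.80 CPM (adjusted p = 6.86e-06). *Cldn1* had 0 to 13 counts in the KO and 37 to 54 in the WT libraries (adjusted p = 0.00275). *Marveld2*, which encodes tricellulin of the occludin family, fell from 3.53 ± 0.68 to 1.51 ± 0.21 CPM (adjusted p = 0.00328).

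Of the desmosome genes, 5 of 6 were tested, with 2 higher, 2 lower and a median of 0.59. *Ppl*, which encodes periplakin, rose from 155.4 ± 39.7 to 323.1 ± 43.4 CPM (edgeR, adjusted p = 0.000610), and *Pkp3*, which encodes plakophilin 3, had 52 to 135 counts in the KO and 7 to 17 in the WT libraries (adjusted p = 0.000788). The desmosomal cadherin *Dsg2* fell from 113.1 ± 23.7 to 77.2 ± 11.5 CPM (adjusted p = 0.0127). Of the 11 epithelial identity genes, not all of them regulators, 5 were tested, with 3 higher, 1 lower and a median of 0.83. *Esrp2*, a splicing factor of epithelial cells named here after its values were seen, had 1088 to 1499 counts in the KO and 421 to 576 in the WT libraries (adjusted p = 0.000273). The other called genes had fewer counts. *Grhl1* had 18 to 58 counts in the KO and 0 to 4 in the WT libraries, *St14* 101 to 142 and 21 to 49, and *Ovol1* 0 to 10 and 11 to 42.

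Of the other EMT transcription factors, 9 of 13 were tested, with 3 higher, 3 lower and a median of -0.22. This list also holds the inhibitors *Id1*, *Id2* and *Id3*, with *Id3* among the higher and *Id2* among the lower genes. *Id2*, an inhibitor of helix-loop-helix factors, fell from 338.8 ± 59.1 to 113.7 ± 21.1 CPM (edgeR, adjusted p = 2.61e-05), and *Klf8* had 35 to 53 and 7 to 16 counts (adjusted p = 0.0413). Of the mesenchymal cytoskeleton and matrix genes, 11 of 20 were tested, with 2 higher, 5 lower and a median of -0.11. *Cnn1*, which encodes calponin 1 of contractile cells, had 0 counts in all KO and 30 to 42 in the WT libraries, at least 16.9-fold lower against a floor of 3 counts per library. The matrix genes *Tnc* (tenascin C) and *Postn* (periostin) had 0 to 6 and 0 to 3 counts in the KO and 24 to 62 and 30 to 66 in the WT libraries. Over all genes tested, the median was -0.03, as given above.

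The counts of the lists in KO against WT depended on single libraries. Those of all lists but the epithelial identity one also depended on the scaling. Over all genes, 8449 were called without WT 8, 6161 to 6927 without any other library and 7364 with all libraries. Without WT 8, higher and lower genes numbered 5 and 1 of the adherens and 6 and 4 of the tight junction list. They numbered 3 and 2 of the desmosome and 5 and 5 of the mesenchymal list. The adherens list gave 1 and 1 without any of KO 6, KO 7, KO 8, WT 5-6 or WT 7, and 3 and 1 without KO 5. The mesenchymal list gave 1 and 5 without any library other than WT 8. The EMT factor list gave 2 and 3 without any of KO 5, KO 6, KO 7, WT 5-6 or WT 8. It gave 2 and 4 with offsets for transcript length. With libraries scaled by their totals, 5675 of the 13359 genes tested were called higher and 2124 lower, against 3568 and 3796 with TMM. The counts were then 5 and 0 for the adherens, 6 and 3 for the tight junction and 3 and 0 for the desmosome list. They were 4 and 2 for the EMT factor and 4 and 5 for the mesenchymal list. The medians of the EMT factor and mesenchymal lists turned to 0.18 and 0.29, under the 0.38 of all genes. Of the epithelial identity genes, 3 were called higher in each of these fits, and none was called lower without WT 7.

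In KI against WT, 21.2% of all genes tested were called higher and 21.0% lower. The KI cells had 1 adherens junction gene higher and none lower of 9, and 2 and 4 of 11 tight junction genes. They had 1 and 1 of 5 desmosome genes and 0 and 1 of 4 epithelial identity genes. The adherens genes called higher numbered 3 without WT 8 and 4 with libraries scaled by their totals. Under that scaling 4620 of the 13534 genes tested were called higher and 1438 lower. No desmosome gene was called higher without KI 5, KI 6, KI 7 or any 1 of the WT libraries. Without WT 5-6, 2 of 5 epithelial identity genes were called lower. Of the other EMT transcription factors, 3 of 9 were higher and 2 lower. Of the mesenchymal cytoskeleton and matrix genes, 7 of 10 were higher and 0 lower, with a median log2 fold change of 1.02 against -0.02 over all genes, and 6 or 7 were higher when any 1 library was left out. *Tnc* had 322 to 488 counts in the KI libraries (log2 fold change 2.62, adjusted p = 1.94e-05), *Postn* 138 to 255 (1.45, adjusted p = 0.00280) and *Cnn1* 98 to 138 (1.12, adjusted p = 0.00627; edgeR for all). In KO against KI, with 27.0% of all genes tested called in each direction, 0 of 11 genes of the mesenchymal list were higher and 7 lower in the KO cells. In that list 1 gene was called higher without KO 7, KI 5 or KI 6, with libraries scaled by their totals and with offsets for transcript length. Of the epithelial identity genes, none was called lower without KO 5, KO 7, KO 8 or any 1 of the KI libraries. Of the other lists, 2 and 3 of 9 adherens junction genes were higher and lower in the KO cells. So were 3 and 5 of 11 tight junction genes and 4 and 1 of 5 desmosome genes. The same held for 3 and 1 of 5 epithelial identity genes and 2 and 5 of 9 other EMT transcription factors.

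**Figure D5:**
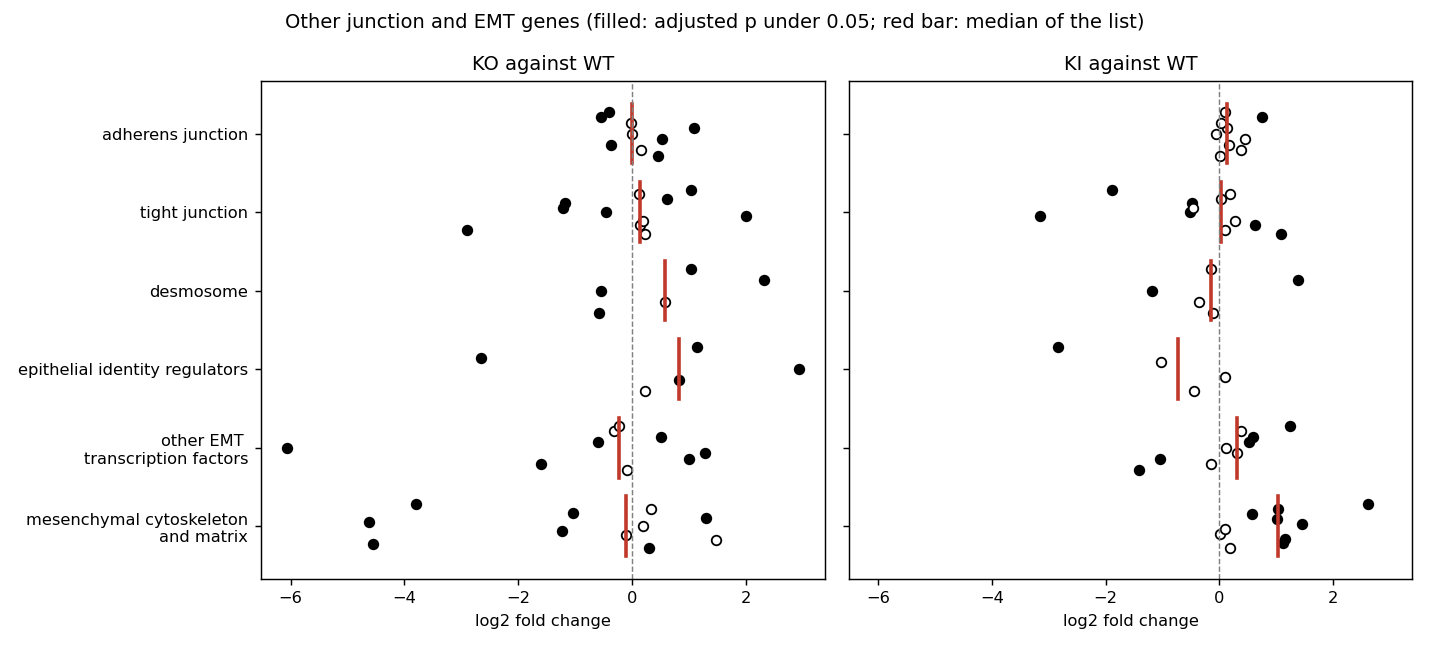
Log2 fold change (horizontal axis) of every tested gene of the 6 lists, for KO against WT and KI against WT. Filled points passed the test and red bars are medians. Points beyond -3 belong mostly to genes near 0 counts in 1 group, whose fitted values depend on the prior count and are no bounds. The mesenchymal list has its median at -0.11 in the KO and at 1.02 in the KI panel.

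For each of the 10 genes, the genes with the most similar log2 CPM over the 11 libraries were sought among 10029 genes, by Pearson's r as a measure of likeness. The libraries fall into 3 lines, so the 11 points are not independent, and the values are a description. *Zeb2* was most like *Nfatc2ip* (r = 0.99, n = 11), which had 14.3 CPM in the KO, 4.06 in the WT and 8.48 in the KI cells. *Cdh2* was most like *Hnrnpk* (r = 0.99), *Fn1* like *Gaa* (r = 0.99), *Vim* like *Nelfb* (r = 0.99), *Tjp1* like *Ubr2* (r = 0.99) and *Zeb1* like *Pskh1* (r = 0.99). *Snai2* was most like *Sim2* (r = 0.97), *Ocln* like *Stau2* (r = 0.97), *Cdh1* like *Rab11fip3* (r = 0.96) and *Snai1* like *Rtkn* (r = 0.95).

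The choice of scaling sets the level around which changes are read. When libraries were scaled by their totals alone, the middle of the fold changes over all genes tested went from -0.03 to 0.38 on the log2 scale for KO against WT, from -0.02 to 0.30 for KI against WT and from 0.00 to 0.06 for KO against KI. The share of calls that were higher went from 48.5% to 72.8% for KO against WT and from 50.2% to 76.3% for KI against WT. The 7 EMT genes called in KO against WT kept their direction and passed under this scaling, from *Fn1* at -1.31 and *Ocln* at -1.21 to *Zeb2* at 3.56. *Cdh1* also passed there, at 0.75 for KO against WT and 0.54 for KI against WT. Genes of greater length had higher fold changes against WT, with medians from -0.22 in the shortest to 0.13 in the longest of 5 equal classes of length for the KO and from -0.20 to 0.13 for the KI cells. With offsets for transcript length, each of the 10 genes kept its direction and its call in all 3 comparisons, *Zeb2* at 3.01 and *Cdh2* at 0.33 for KO against WT among them.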

How the data were processed

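The authors' deposited table holds read counts per gene, not normalized, for 11 libraries, made from polyadenylated RNA by their sequencing provider. HISAT2, TopHat2, Bowtie2 and StringTie are named in the submitters' processing notes, and the genome build, annotation and counting tool are not given in the sources used here. Of 26472 lines, 10 with broken fields were left out, and counts were summed by gene name, which gave 24849 genes, 2960 of the lines used being newly assembled entries. Columns of FPKM that lost their decimal points, and columns with fold changes and p-values of the authors' own comparisons, were not used.

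Each comparison used the libraries of its 2 groups only, with edgeR 4.0.16 in R 4.3.3 (filter for low counts, TMM factors, robust quasi-likelihood test, prior count of 2) on the whole table. An adjusted p (Benjamini-Hochberg) under 0.05 over all genes was a call. Levels used TMM factors over all 11 libraries. Totals were 30380360 to 38422243 in the KO, 29840366 to 30364098 in the WT and 32360709 to 35335070 in the KI libraries. Floors of 3 counts cover counting error only. No 2 libraries of a group agreed within sampling noise. The test was also run on simulated data, in which far fewer genes were changed than were called here. That run does not cover the setting of these calls.

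The genes, lists and tests were chosen with earlier results of these data known. All 10 EMT genes were named, and from each list the 3 genes with the largest change among those called and not overlapping in KO against WT. The result for 1 of these genes is not reported here. Alternatives were DESeq2 1.42.0, limma 3.58.1 on log2 CPM with a pseudocount of 1, other scalings and filters, 1 fit of all 3 groups, a replicate block, leaving out each library and, chosen after seeing the data, offsets for transcript length. Figures were drawn with matplotlib 3.10.9.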

Additional observations from a re-analysis of the deposited data

How the results depend on the processing

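Between 6 and 8 of the 10 genes were called in KO against WT when any 1 library was left out, 3 or 4 in KI against WT and 7 to 9 in KO against KI. Over all genes, 6161 to 8449, 4276 to 6969 and 6515 to 7230 were called in these fits. The other alternatives gave 7 or 8, 3 or 4 and 7 to 9 of the 10 genes. Of the values of single genes, 11 changed sign, all of them for genes that were not called. Under library totals these were *Zeb1* in KO against WT (0.18) and, in KI against WT, *Ocln* (0.12), *Tjp1* (0.29), *Vim* (0.26) and *Snai2* (0.037). In KI against WT they were also *Tjp1* with the replicate block (0.037), without WT 8 (0.17), without KI 6 (0.02) and without KI 8 (0.04), *Vim* without WT 8 (0.073) and *Fn1* without WT 8 (0.0074). With 1 library left out, these 3 genes ranged from -0.174 to 0.171, from -0.124 to 0.073 and from -0.471 to 0.0074. *Cdh1* in KO against WT also passed with all 3 groups in 1 fit (0.38, adjusted p = 0.0329). *Cdh2* in KO against KI was not called under library totals (-0.22, adjusted p = 0.112), in 1 fit of all groups (adjusted p = 0.0689) or with the replicate block (0.0630), nor was *Snai1* with the block (0.0795). The causes were not tested.

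The numbers of the libraries were not taken as pairs. Deviations of same-numbered libraries correlated by 0.36, 0.07 and 0.50 between KO and WT, by 0.10, -0.20 and -0.38 between KI and WT, and by -0.27 to 0.05 between KO and KI. With the replicate block, 8183, 4891 and 6453 genes were called in the 3 comparisons, against 7364, 5722 and 7171 without it. Depth limits *Snai1* and *Ocln*, which had at most 67 and 200 counts in any library.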

Other observations

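The other cadherins and claudins of the table were looked at after the values of *Cdh1*, *Cdh2* and *Ocln* had been seen. Of 21 other cadherins, 6 were tested in KO against WT, with 1 higher and 3 lower, where 55.1% of all genes tested were called. *Cdh13*, a cadherin anchored by a lipid and without a cytoplasmic tail, had 24.2 ± 2.19 CPM in the KO, 8.92 ± 2.38 in the WT and 6.08 ± 0.88 in the KI libraries (KO against WT log2 fold change 1.41, adjusted p = 0.000124, edgeR). *Cdh17*, a cadherin first described in liver and intestine, ran the other way, with 21.8 ± 1.10 CPM in the KO, 54.5 ± 10.49 in the WT and 111.8 ± 10.9 in the KI libraries, -1.34 in KO against WT and 1.04 in KI against WT (adjusted p = 2.40e-05 and 0.000241). *Cdh16* had 0 to 5 counts in the KO and 19 to 59 in the WT libraries. *Cdh12* had 0 counts in all KO and 14 to 36 in the WT libraries, at least 12.0-fold lower against the floor of 3 counts per library.

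*Cdh6*, a cadherin of embryonic kidney, had 223.3 ± 16.3 CPM in the KI and 117.9 ± 17.2 in the WT libraries (log2 fold change 0.92, adjusted p = 0.000373, edgeR), and 147.5 ± 13.7 in the KO libraries, where it did not pass against WT (adjusted p = 0.0853). Of 23 claudins, 5 were tested, with 1 higher and 1 lower in KO against WT, where 55.1% of all genes tested were called. *Cldn2*, a claudin that forms pores for cations, had 791.4 ± 15.4 CPM in the KO, 682.1 ± 34.7 in the WT and 822.6 ± 78.8 in the KI libraries and was called in no comparison. *Cldn6* had 0.45 ± 0.31 CPM in the KI libraries, under the 4.54 ± 0.87 CPM of the WT and the 18.6 ± 1.80 CPM of the KO libraries, so that it changed in opposite directions in both lines (adjusted p = 0.000169 for KI against WT). *Cldn12* was higher in the KI than in the WT cells (log2 fold change 0.62, adjusted p = 0.00391).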
